A study of Gallus gallus and Columba livia with 18 samples.

Results

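The 6 genes of axon growth and the axonal skeleton studied here, GAP43, STMN2, NEFL, NEFM, SNCG and NRN1, were measured in the developing retina of chicken (Gallus gallus) and pigeon (Columba livia). They were taken by symbol, with every row that carries one of these names. All 6 symbols were found in the chicken table, in 6 of its 24708 rows, and 5 in the pigeon table, in 8 of its 16652 rows. NEFM was matched to no pigeon row and was not analysed there under that name. Whole retinas came from eggs kept at 37 °C and were taken at E3 (embryonic days 3 to 3.5), E5 (days 5 to 5.5) and E8 (days 8 to 8.5). No treatment or mutation is named in the labels. Each of the 6 groups of species and stage held 3 mRNA libraries, each made from 1 to 6 retinas. The tables give 1 pooled value for each gene and stage, in FPKM (fragments per kilobase of transcript, scaled by the mapped fragments of a library), so no value below has a replicate error and no difference has a test.

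Ganglion cells are the output neurons of the retina and among the first to be born, and their axons form the optic nerve. A growing axon carries a growth cone, a motile tip in which membrane is added and microtubules are taken apart and rebuilt. Behind it the axon fills with microtubules and, as it matures, with neurofilaments, which are intermediate filaments built from light, medium and heavy subunits. GAP43 is a membrane-bound protein of the growth cone, and STMN2 (also called SCG10) is a stathmin that destabilises microtubules there. NEFL and NEFM are the light and medium neurofilament subunits. SNCG, gamma-synuclein, is a small presynaptic and axonal protein used as a ganglion cell marker in the mouse retina, and NRN1 (neuritin) is a lipid-anchored surface protein that promotes neurite growth.

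In chicken, GAP43 lies on chromosome 1 from 85577427 to 85638703, NRN1 on chromosome 2 from 66306286 to 66314138 and STMN2 on chromosome 2 from 125412681 to 125447404. NEFL and NEFM are neighbours on chromosome 22, from 953081 to 957895 and from 961999 to 966512, and SNCG lies on chromosome 6 from 3620909 to 3624528. The pigeon rows lie on scaffold101 from 21377163 to 21400247 for GAP43, on scaffold543 from 603523 to 609527 for SNCG and on scaffold565 from 5147502 to 5147735 for NRN1. Genome builds were not given in the sources used here; no locus of another row overlapped these.

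The pigeon table names 3 rows STMN2, all with the same Ensembl identifier. The first, on scaffold791 from 187037 to 199730, stands next to HEY1 and MRPS28, which also follow STMN2 in chicken. The second, on scaffold36 from 1345496 to 1347130, stands between GMEB2 and RTEL1, and these flank STMN3 in the chicken table. The third, on scaffold466 from 651271 to 653901, stands beside ANGPTL7-2, and in chicken ANGPTL7 follows STMN4. They are called here the HEY1, RTEL1 and ANGPTL7-2 rows of STMN2. STMN3 and STMN4 encode further neuronal stathmins, and neither symbol was matched to a pigeon row.

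NEFL names 2 pigeon rows with a shared identifier, from 340506 to 343424 and from 349325 to 352911 on scaffold740, with a gap of 5.9 kb between them. In chicken the gap between NEFL and NEFM is 4.10 kb. The chicken order is DOCK5, NEFL, NEFM, ADAM28, NKX2-6 and STC1, and the pigeon order is DOCK5, NEFL, NEFL, ADAM7 and STC1. The pigeon row on the DOCK5 side thus holds the place of chicken NEFL, and the row on the ADAM7 side that of chicken NEFM. The 2 rows are called the DOCK5 and ADAM7 rows of NEFL. Reads of close relatives may be split between such rows, and the labels do not say how the counting treated them.

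**Figure D1:**
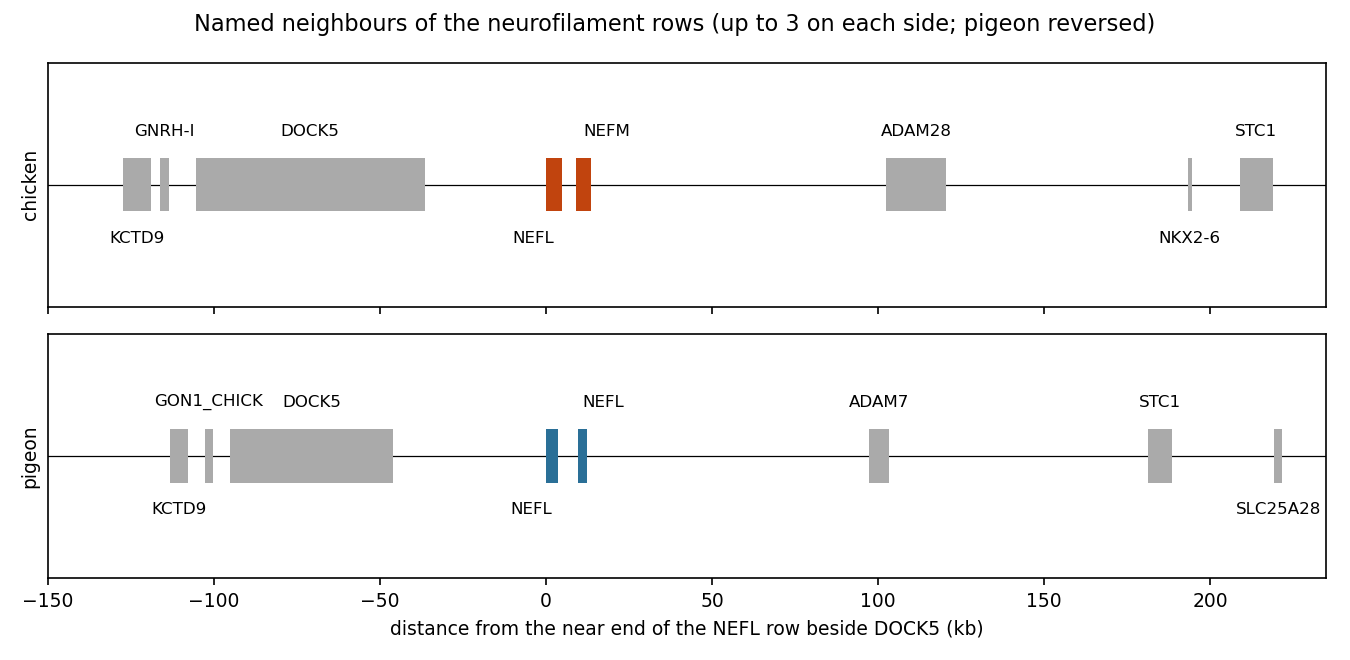
Named rows on both sides of the neurofilament rows in chicken (top) and pigeon (bottom, reversed), with distance in kb on the x axis. Coloured boxes are the neurofilament rows and grey boxes their neighbours; in both species a pair of rows, 4.10 kb apart in chicken and 5.9 kb apart in pigeon, stands between DOCK5 and STC1.

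The growth cone gene GAP43 changed little between the first stages and was higher at E8 in both species. In chicken it was at 24.6 FPKM at E3, 22.4 at E5 and 67.6 at E8. In pigeon it was at 48.3, 46.5 and 343. The E3 and E5 values lay close together in both species, with changes of log2(FPKM + 1) of −0.13 in chicken and −0.05 in pigeon, and E8 stood above both. From E5 to E8 the FPKM was 3.01-fold higher in chicken and 7.38-fold higher in pigeon, log2 changes of 1.55 and 2.86. In chicken GAP43 was the member with the highest level at E3 and was the fourth of 6 at E8.

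Chicken STMN2 took a different course from GAP43 before E5. It stood at 7.95 FPKM at E3, 34.5 at E5 and 182 at E8, so that the log2 change was 1.99 in the first interval and 2.37 in the second. Its E3 to E8 change of 4.36 ranked 9 among 14451 genes compared. The level of STMN2 was 0.323 times that of GAP43 at E3, 1.54 times at E5 and 2.70 times at E8, on the FPKM scale, which is per length. At E8 it had the highest level of the chicken members and ranked 462 among all rows of the table.

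None of the pigeon rows of STMN2 was higher by 1 log2 unit at E5. The HEY1 row was at 219 FPKM at E3, 188 at E5 and 841 at E8, the highest level of any pigeon member at each stage. Its first value was already 4.52 times that of pigeon GAP43, and the ratio was 2.45 at E8. The RTEL1 row was at 6.42, 9.02 and 112. Its 12.4-fold higher FPKM at E8 than at E5 was the largest such step of any row with a member name in either species. By its neighbours, however, this row pairs with chicken STMN3, which is not a member. The ANGPTL7-2 row was at 54.2, 49.3 and 114. All 3 rows were higher at E8, and between E3 and E5 their changes ran from −0.22 to 0.43.

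The relatives of STMN2 were looked up as well. Chicken STMN3 was at 4.78, 10.1 and 37.8 FPKM and STMN4 at 6.76, 6.99 and 16.3. STMN1, a stathmin of dividing and neural cells, was at 2255, 2502 and 3892 in chicken and at 2047, 2008 and 4283 in pigeon. STMN1 was thus the most abundant stathmin by FPKM at every stage in both tables, with E5 to E8 changes of 0.64 and 1.09.

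The neurofilament subunits were higher at each later stage in both species. Chicken NEFL was at 21.0 FPKM at E3, 52.8 at E5 and 143 at E8. Chicken NEFM was at 23.3, 60.8 and 116. The ratio of NEFM to NEFL was 1.11 at E3, 1.15 at E5 and 0.816 at E8, so the medium subunit had the higher level at first and the light subunit at E8. NEFM was also the chicken member whose E5 to E8 change, 0.93, stayed under 1.

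In pigeon the ADAM7 row of NEFL was at 17.4, 39.0 and 99.4 FPKM and the DOCK5 row at 11.1, 29.8 and 96.1. Their E3 to E5 changes of 1.12 and 1.35 were the only ones among the 7 pigeon rows compared that reached 1. The ratio of the ADAM7 row to the DOCK5 row was 1.57, 1.31 and 1.03 over the stages. When the rows were paired with chicken by their place between DOCK5 and STC1, the pigeon change minus the chicken change was 0.06 (E3 to E5) and 0.24 (E5 to E8) for NEFL, and −0.23 and 0.40 for NEFM.

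NEFH, the heavy subunit that joins neurofilaments of mature axons, was low at all stages. It was at 0.033, 0.0754 and 0.194 FPKM in chicken and at 0.731, 0.865 and 4.17 in pigeon. The chicken gene stayed under the FPKM of 1 needed for a comparison, and the pigeon change from E5 to E8 was 1.47. Neither INA nor PRPH, which encode other intermediate filament proteins of neurons, was matched in either table. Intermediate filament genes of progenitors took other courses: VIM, vimentin, was at 475, 666 and 601 in chicken, and NES, nestin, was at 196, 141 and 119 in chicken and at 165, 157 and 219 in pigeon.

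SNCG started low and ended 17.8-fold higher in chicken and 8.62-fold higher in pigeon. In chicken it was at 1.48 FPKM at E3, 4.91 at E5 and 26.2 at E8. In pigeon it was at 6.54, 8.37 and 56.4. The chicken change was spread over both intervals, 1.25 and 2.20, while the pigeon change lay mostly in the second, 0.31 and 2.61. The pigeon gene model is 291 bases long, and its E3 and E5 values came to 5.34 and 6.93 times the smallest value above 0 among models of nearly the same length, so they stand close to the lowest values such models can take.

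SNCB, beta-synuclein, a presynaptic relative of SNCG, was at 3.72, 3.35 and 7.41 FPKM in chicken and was not matched to a pigeon row. Its log2 change from E3 to E8 was 0.83, against 3.46 for chicken SNCG.

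NRN1 had the lowest level of the members at E3. In chicken it was at 0.496 FPKM, then 5.31 at E5 and 29.9 at E8. Its log2 change of 2.08 over the first interval was the highest of the chicken members, and that of 2.29 over the second came after STMN2. Its E3 to E8 change of 4.37 ranked 8 among 14451 genes. Chicken NRN1 lay under an FPKM of 1 at E3, so it was compared only through its later stages. Its E3 to E8 change was 5.65 with a pseudocount of 0.1 and 2.67 with 5, and its rank under these was not computed. In pigeon NRN1 was listed at 0 at E3, then at 9.90 and 29.5, and no change from E3 was computed. The pigeon model has 234 bases, the smallest value above 0 among models of nearly this length was 2.35 FPKM at E3, and the E5 and E8 values came to 6.33 and 10.7 times the smallest value at those stages.

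**Figure D2:**
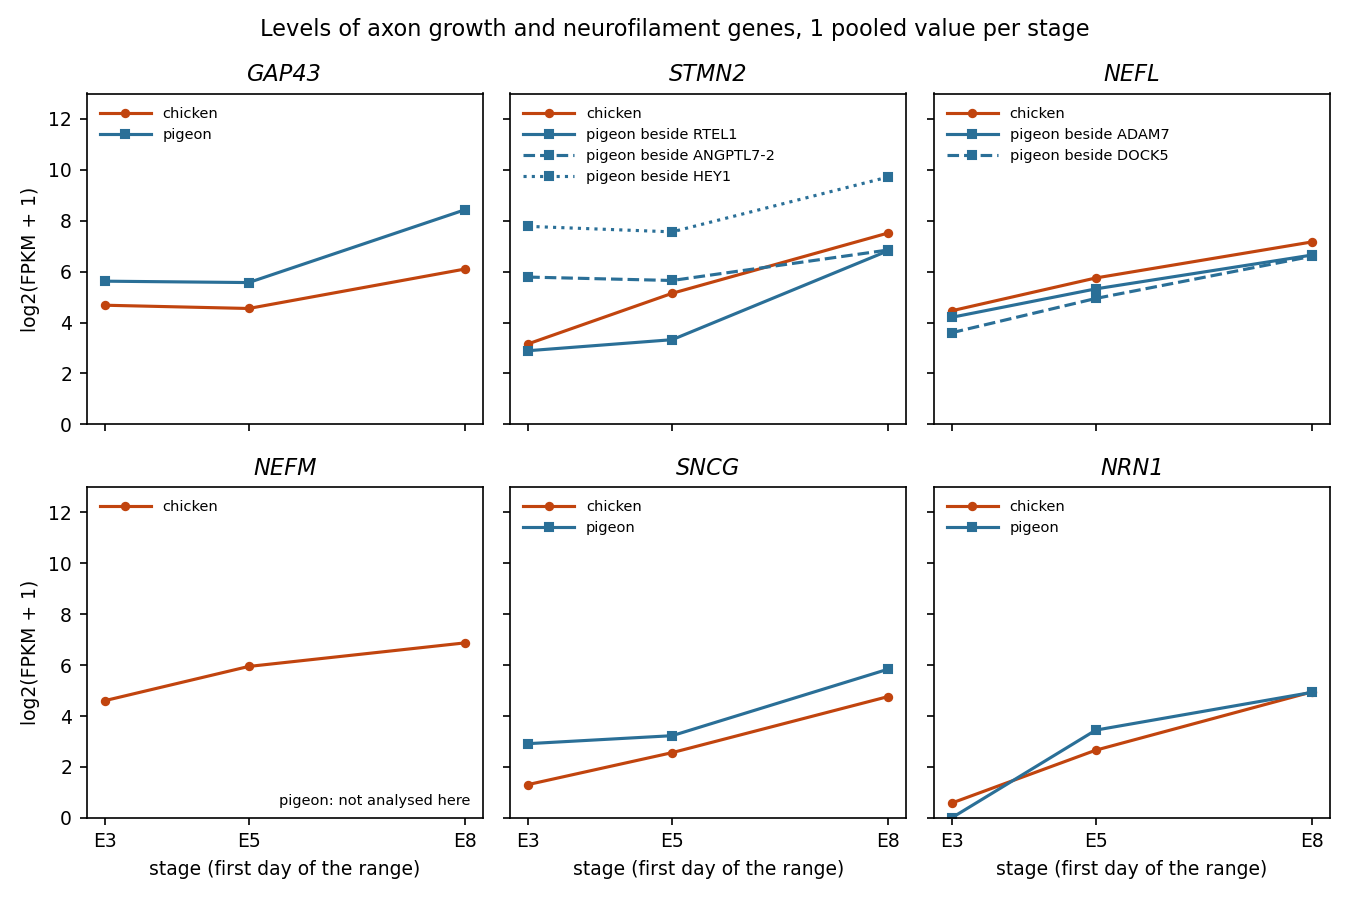
Levels of the 6 genes as log2(FPKM + 1) (y axis) against stage (x axis), with 1 point per pooled stage value, circles for chicken and squares for pigeon. Line styles separate pigeon rows that share a name; GAP43 is level from E3 to E5 in both species, and the neurofilament lines of both species climb at both intervals.

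Counted together, 5 of the 6 chicken members were higher by at least 1 log2 unit at E5 than at E3 and none was lower, beside 1.97% of all 14490 genes compared that were higher and 1.00% that were lower. From E5 to E8 it was again 5 of 6 and none, beside 4.53% and 4.46%. From E3 to E8 it was all 6, beside 6.65% higher and 5.29% lower. Median changes of the members were 1.32, 1.88 and 3.08, where those of all genes lay between −0.0117 and −0.00113. The 2 intervals share the E5 value, so they are not independent of each other.

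In pigeon 2 of 7 rows compared were higher by at least 1 from E3 to E5, beside 1.51% of 11948 genes higher and 1.36% lower. From E5 to E8 all 8 rows were higher, beside 8.04% higher and 7.25% lower, and from E3 to E8 all 7 rows compared, beside 9.39% and 8.58%. The member medians were 0.31, 1.91 and 2.80, beside −0.000671 to 0.00107 for all genes. Since 5 of the 8 rows carry the names STMN2 and NEFL, these counts lean on 2 names, and with the highest row of each name taken the first count became 1 of 4. They also include the RTEL1 and ANGPTL7-2 rows of STMN2, which by their neighbours pair with chicken STMN3 and STMN4, not members. A pseudocount of 5 in place of 1 brought the chicken count from E3 to E5 down to 3 and the pigeon count to 1, beside 0.545% and 0.452% of all genes higher under that setting.

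**Figure D3:**
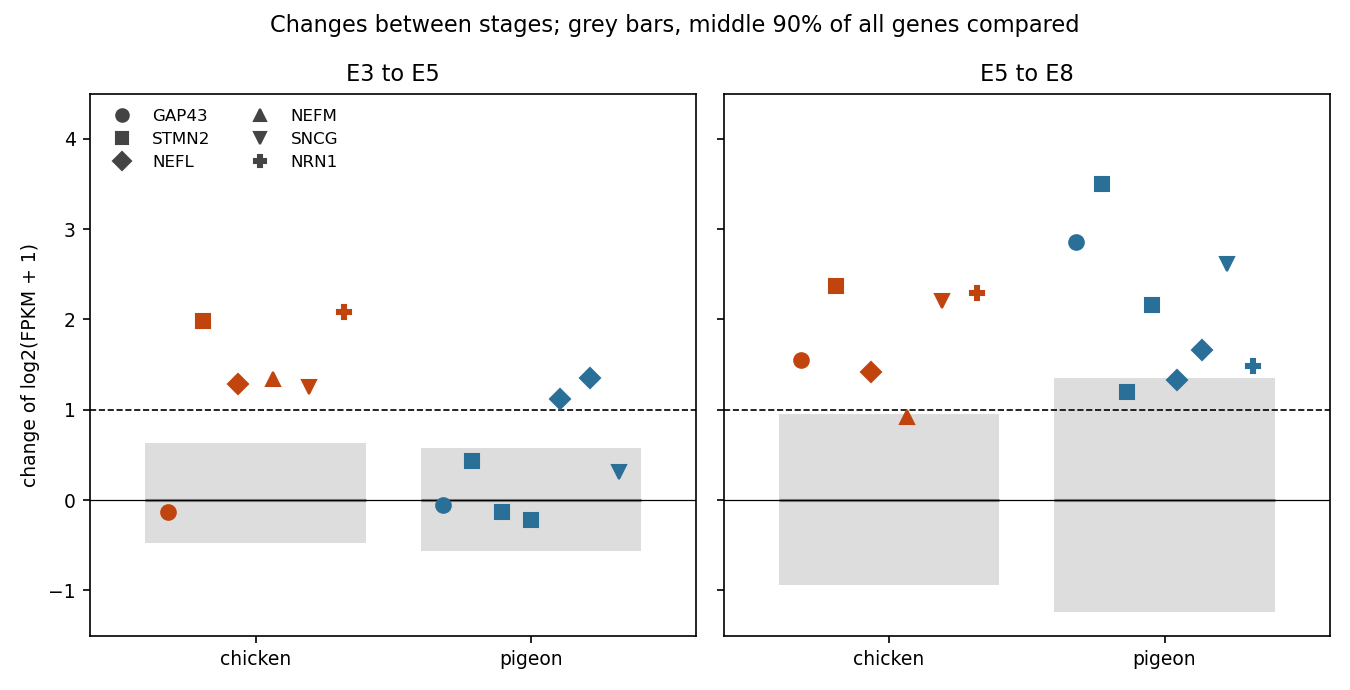
Change of log2(FPKM + 1) (y axis) over E3 to E5 (left) and E5 to E8 (right) in each species, 1 marker per table row and 1 shape per gene, without pigeon NRN1 on the left. Grey bars span the middle 90% of all genes compared and the dashed line marks 1; the chicken genes other than GAP43 lie above 1 on the left, and in pigeon the NEFL rows do.

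The part of the E3 to E8 change that was reached at E5 set the members apart. On the log2 scale it was 59.3% for NEFM, 47.7% for NEFL, 47.6% for NRN1, 45.6% for STMN2 and 36.3% for SNCG in chicken, and −9.03% for GAP43. In pigeon it was 45.7% and 44.8% for the ADAM7 and DOCK5 rows of NEFL. For the other pigeon rows with a value it lay between −12.6% and 11.02%. By gene order the DOCK5 row pairs with chicken NEFL, 44.8% against 47.7%, and the ADAM7 row with chicken NEFM, 45.7% against 59.3%. SNCG had 36.3% in chicken and 10.7% in pigeon. For low genes these parts depend on the pseudocount. With a pseudocount of 0.1, chicken NRN1 changed by 3.18 of 5.65 and chicken SNCG by 1.67 of 4.06 before E5. With a pseudocount of 5 it was 0.91 of 2.67 for NRN1 and 0.61 of 2.27 for SNCG.

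The 3 symbols GAP43, SNCG and NRN1 were listed once in both tables, and their changes could be set against each other without a choice of rows. From E5 to E8 the pigeon change exceeded the chicken change by 1.31 for GAP43 and by 0.41 for SNCG, and was 0.81 smaller for NRN1, −0.81 as pigeon minus chicken. Of 5135 symbols compared in this way, 5.06% had a difference of at least 1 and 3.15% of −1 or less, and 152 lay above GAP43. From E3 to E5 the differences were 0.07 for GAP43 and −0.94 for SNCG, with 0.718% of 5154 symbols at 1 or more and 1.86% at −1 or less. With a pseudocount of 0.1 the SNCG difference was −1.32, and the shares of all symbols under that setting were not computed. From E3 to E8 the differences were 1.38 for GAP43 and −0.53 for SNCG, with 5.75% and 4.52% of symbols past 1 in the 2 directions. The SNCG difference turned to 0.14 with a pseudocount of 5. With the HEY1 row of STMN2 paired with chicken STMN2, the difference was −2.20 (E3 to E5) and −0.21 over the second interval.

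Levels cannot be compared between the tables, but the order within each can. In chicken the order at E3 was GAP43, NEFM, NEFL, STMN2, SNCG and NRN1, and at E8 it was STMN2, NEFL, NEFM, GAP43, NRN1 and SNCG. In pigeon the E8 order was the HEY1 row of STMN2, GAP43, the ANGPTL7-2 and RTEL1 rows of STMN2, both NEFL rows, SNCG and NRN1. Without a spread between libraries, neighbours such as NEFM and GAP43 at E3 in chicken, 23.3 and 24.6 FPKM, cannot be ranked with any confidence. Pigeon models hold nearly only coding sequence, which bears on their FPKM.

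Genes with the most similar course were sought among symbols listed once in both tables that reached an FPKM of 5 in each species and were above 0 throughout, by the Euclidean distance over 4 changes, the 2 intervals in the 2 species. For GAP43, among 4371 others, the nearest were PTPRZ1, a receptor tyrosine phosphatase of neural cells (distance 0.46), CXCR4, a chemokine receptor (0.70), and SV2B, a synaptic vesicle protein (0.73). PTPRZ1 had changes of −0.12 and 1.44 in chicken and 0.05 and 3.29 in pigeon. For SNCG the nearest were SYT4, a synaptotagmin (0.46), FGF9, a growth factor (0.57), and RORB, a nuclear receptor of retinal neurons (0.65). For the median course of the members, taken first over the rows of a name and then over names, which made the pigeon changes 0.13 and 2.16, they were SETBP1 (0.44), SYT4 (0.53), SNCG itself (0.60), MYBL1 (0.62) and SRRM3 (0.62). With 1 value per stage such distances describe these tables and carry no error.

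Of 49 further genes of axons and ganglion cells in 7 lists, 38 were matched in chicken and 21 in pigeon, in 38 and 29 rows. In chicken 5 of 36 rows compared were higher by at least 1 from E3 to E5, 15 from E5 to E8 and 18 from E3 to E8. The shares of all genes were 1.97%, 4.53% and 6.65%. None of the rows was lower in any interval, beside 1.00%, 4.46% and 5.29% of all genes. In pigeon 6 of 26 were higher from E3 to E5, 16 of 27 from E5 to E8 and 17 of 26 from E3 to E8. The shares of all genes were 1.51%, 8.04% and 9.39%. None of the pigeon rows was lower, beside 1.36%, 7.25% and 8.58% of all genes. The median change from E5 to E8 was 0.80 in chicken and 1.46 in pigeon.

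Growth cone membrane proteins were split. GPM6A, a proteolipid-family protein of neurite membranes, was at 10.7, 34.7 and 116 FPKM in chicken and at 19.5, 50.8 and 454 in pigeon, and its relative GPM6B was at 59.1, 90.5 and 183 and at 77.7, 124 and 632. BASP1, a membrane protein with properties like those of GAP43, was at 381, 377 and 421 in chicken, a change of 0.14 over the whole span, and MARCKSL1 changed by 0.75. Neither BASP1 nor MARCKSL1 was matched in pigeon.

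Among 10 chicken genes of axonal microtubules and collapsin response, 3 were higher by at least 1 from E3 to E8, beside 6.65% of all genes. They were MAP2 (2.39), MAP1B (1.34) and DCLK1 (1.29), and the list had a median of 0.55. MAP1B and MAP2, which bind and stabilise microtubules in axons and dendrites, changed by 2.10 and 1.43 in pigeon, where the list median was 0.45 over 6 rows. That median leans on rows that share the name DPYSL2, with changes of 0.18, −0.0025 and −0.13. CRMP1, a collapsin response mediator, had changes of 0.52 in chicken and 0.72 in pigeon. The adhesion list had 4 of 6 chicken rows higher, CNTN2 (3.11), NRCAM (2.86), NFASC (2.15) and CNTN1 (1.82), which are cell adhesion proteins of axons. The others were CHL1 (0.53) and ALCAM (−0.76), and the list median was 1.98. In pigeon 3 of 5 adhesion rows were higher, beside 9.39% of all genes. They were a row of NRCAM (2.79), CHL1 (2.15) and NCAM1 (1.96). The other NRCAM row changed by 0.85 and THY1 by −0.14, and the list median was 1.96.

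Ganglion cell regulators and markers were higher by at least 1 in most rows of both species from E3 to E8. The counts were 7 of 10 in chicken and 8 of 10 in pigeon, beside 6.65% and 9.39% of all genes. Some went the other way by less than 1. SOX11 changed by −0.16 in chicken and −0.54 in pigeon. RBPMS changed by −0.39 in chicken, and by −0.75 in a pigeon row and 1.22 in another. ATOH7, the transcription factor needed for ganglion cells in the mouse, changed by 4.57 in chicken and 5.57 in pigeon, and ISL1, a factor of ganglion cells and other neurons, by 3.23 and 4.88. POU4F2 changed by 2.37 in chicken and POU4F1 by 4.21 in pigeon. These are members of the POU family that act in ganglion cells, and the largest change computed among pigeon rows named POU4F3 was 2.91. Another row of that name was listed at 0 at E3 and was at 0.981 and 17.2 FPKM at E5 and E8, with no change from E3 computed. Chicken POU4F3 was listed at 0 at every stage. Several pigeon rows share the name POU4F3, and no pigeon row was matched to POU4F2. Whether these rows are all the same gene as chicken POU4F3 was not checked, and the pigeon count of 8 of 10 includes rows of that name.

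**Figure D4:**
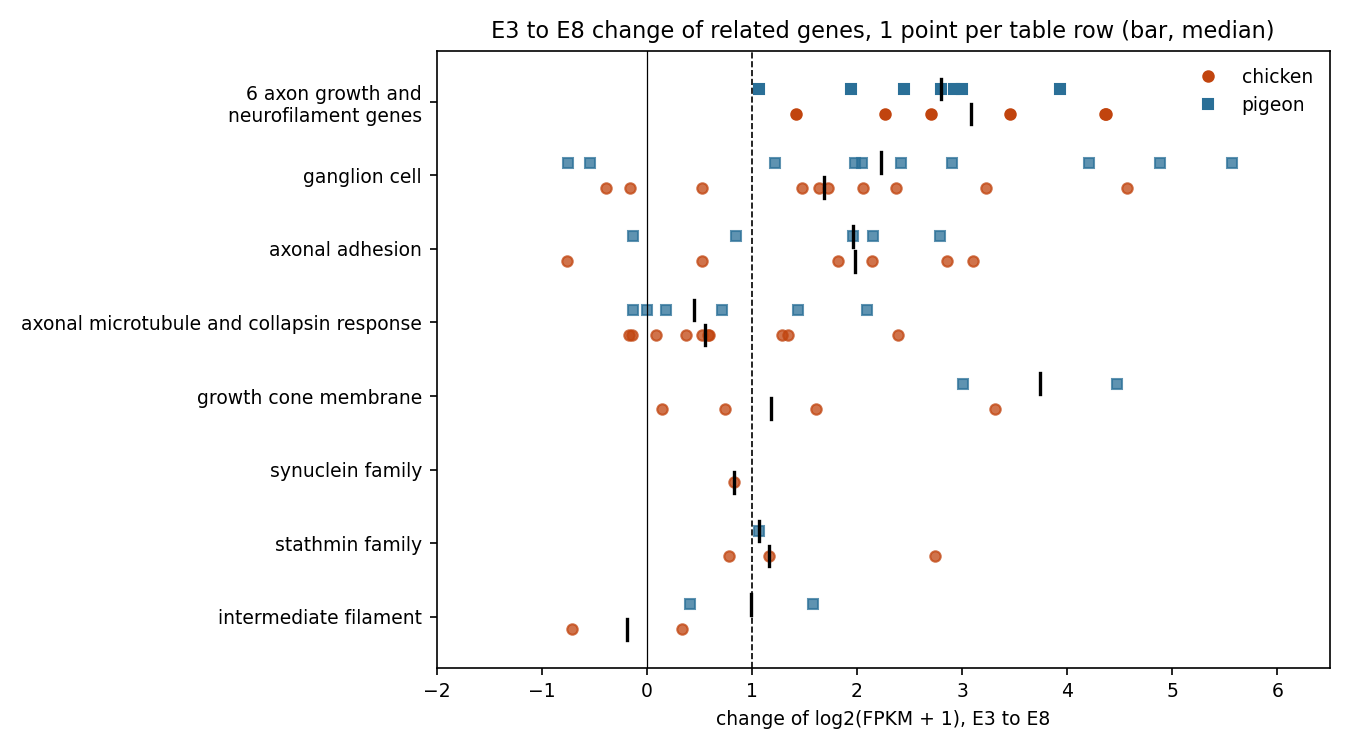
Change of log2(FPKM + 1) from E3 to E8 (x axis) for the rows of 7 lists of related genes and for the 6 members (y axis), circles for chicken and squares for pigeon, with a black bar at each median. Most ganglion cell and adhesion rows lie above 1, the dashed line, while microtubule rows have medians of 0.55 and 0.45. The pigeon median of 0.45 leans on several rows named DPYSL2.

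The tissue was bulk retina, so more cells of a type and more RNA per cell cannot be told apart. Many rows of other neurons were also higher by at least 1 from E5 to E8, beside 4.53% of all genes in chicken and 8.04% in pigeon. Of the amacrine and horizontal cell list, some of whose cells also hold neurofilament, 3 of 6 chicken rows and 8 of 11 pigeon rows were higher by at least 1 from E5 to E8, and the summed FPKM went from 32.1 to 43.9 and from 64.5 to 278. Of the photoreceptor list 4 of 5 and 4 of 6 rows were higher, with sums from 79.9 to 297 and from 224 to 603. Most of the pigeon photoreceptor sum at E5 came from rows named OTX2 (86.5 and 48.2) and ARR3 (73.5). This ARR3 row was at 66.8 at E3 and 52.1 at E8. Lower by at least 1 in pigeon were 1 row of TFAP2B (−1.74), of the former list, and 1 of OTX2 (−3.35), of the latter. The share of all pigeon genes lower was 7.25%. Other pigeon rows of the same names were higher, by 1.37 and 2.22 for TFAP2B and by 2.04 for OTX2. The progenitor list, with sums of 666, 618 and 678 in chicken, had none of 6 rows past 1 there in the same interval. In pigeon its sums were 669, 750.1 and 1324, and of 4 rows CCND1, a cyclin of dividing cells, was higher (1.37) and SFRP2, a secreted Wnt modulator, lower (−3.44). From E3 to E5 the chicken amacrine and horizontal list had 0 of 6 rows higher and 1 lower, TFAP2A (−1.43), and the photoreceptor list had 4 of 5 higher. In pigeon the former had 1 of 11 higher and 1 lower, and the latter 1 of 5 higher. The shares of all genes higher were 1.97% in chicken and 1.51% in pigeon, and those lower 1.00% and 1.36%. The part of all these cells in the results was not tested.

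Most genes of tissues next to the retina were lower at E8 than at E5. Summed FPKM from E3 to E5 to E8 in chicken was 52.1, 229 and 13.4 for pigment epithelium, 643, 703 and 56.8 for lens, 625, 1555 and 102 for erythroid genes, 143, 212 and 14.4 for periocular mesenchyme and 35.7, 46.1 and 36.5 for endothelium. In pigeon the sums were 185, 200.3 and 28.0, then 9.85, 8.03 and 14.7, then 6368, 2300.3 and 123, then 177, 147 and 7.97, and then 17.9, 11.9 and 2.92 in the same order. Over all genes, 4.46% in chicken and 7.25% in pigeon were lower by at least 1 from E5 to E8. In these lists the number lower was 6 of 6, 2 of 5, 4 of 4, 6 of 7 and 3 of 5 in chicken. In pigeon it was 5 of 6, 1 of 3, 6 of 7, 3 of 3 and 2 of 4, and CRYAB was the 1 row higher, in pigeon. In another run the stages were set to equal sums without these genes and without rows on a chromosome named MT, the mitochondrial one. The pigeon member rows lie on scaffolds, and whether any mitochondrial row of pigeon was left out this way was not checked. In that run the counts of members past 1 over E3 to E5 and E5 to E8 were unchanged in both species. The ANGPTL7-2 row of STMN2 then had an E3 to E8 change of 0.94 in place of 1.07.

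Peripheral neurons also hold neurofilament, and the few of their markers that were matched were low. Of 7 markers of peripheral neurons and Schwann cells 4 were matched in chicken, with a summed FPKM of 1.74, 3.63 and 3.80 over the stages. Most of the E8 sum came from CHRNA3, a nicotinic receptor subunit of autonomic ganglia, at 0.905 FPKM at E3 and 3.63 at E8. TLX3, a factor of sensory neurons, was listed at 0 at E3 and E5 and was at 0.0816 at E8, and TH, which makes catecholamine precursors, was listed at 0 at E5 and E8. SOX10 was at 0.423, 2.08 and 0.0831, with changes of 1.11 and then −1.51. It was the 1 of 2 chicken rows compared that was higher by at least 1 from E3 to E5, beside 1.97% of all genes. From E5 to E8 it was the 1 of 2 that was lower, beside 4.46%. In pigeon 2 were matched, TH and SOX10, with sums of 4.37, 1.90 and 0.798. The part of peripheral neurons in the results was not tested.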

How the data were processed

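Per the labels' protocols, RNA was extracted with Trizol and libraries were made with a stranded mRNA kit from 1 µg of total RNA. Cuffdiff, Cufflinks, TopHat2 and Bowtie2 are named, without versions, per the submitters' processing notes. The authors deposited FPKM in 2 tables, each with 1 pooled column for a stage. Neither read totals nor builds and annotations were given in the sources used here, and counting error is unknown. The median pigeon model is 957 bases long, and 89.9% of these lengths are multiples of 3.

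A change is log2(FPKM + 1) at the later stage minus that at the earlier one, a scale that understates changes of low genes. Compared were genes above 0 at both stages that reached an FPKM of 1 anywhere. A change of 1 was counted. Each pigeon value was also divided by the smallest value above 0 at that stage among models within 3% of its length. Starts were converted to count from 1. Python 3.11.15 with pandas 2.3.3 was used. The calculation was run on a copy of the chicken E3 values in which known changes had been set. That run had no noise and no low or pigeon values among those changed, so it checks the arithmetic only. Tests with limma, a replicate block and leaving out replicates need a value per library and were not run.

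The members and lists were chosen with earlier results of these data known. Genes were named when they were members or their relatives, among the nearest courses, or among the 4 largest E3 to E8 changes of a list. CRMP1, CNTN1, NCAM1, ALCAM, THY1, POU4F2, RBPMS, SOX11 and DPYSL2 were named after their values were seen. So were CRYAB, TFAP2A, TFAP2B, OTX2, ARR3, CCND1, SFRP2, CHRNA3, TLX3, TH and SOX10 among the markers. Some genes of the lists are not reported here, and the counts and sums leave them out. Older symbols were matched through a RefSeq table of chicken gene names (assembly GRCg7b).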

Additional observations from a re-analysis of the deposited data

Results flagged for a closer look

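For 2 pairs of rows the pooled value went one way in chicken and the other way in pigeon, with a change of at least 1 in 1 of the species. The difference was not tested, since each species has 1 value per stage. From E3 to E5 chicken STMN2 changed by 1.99, and the ANGPTL7-2 and HEY1 rows of STMN2 in pigeon by −0.13 and −0.22, differences of −2.12 and −2.20 as pigeon minus chicken. In chicken ANGPTL7 follows STMN4, which changed by 0.04, so by its neighbour the ANGPTL7-2 row pairs with STMN4, and its difference from chicken STMN2 is between rows that share only a name.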

How the results depend on the processing

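No paired analysis was possible because the tables hold 1 pooled column per stage; leaving out replicates was not run for the same reason. No member change or species difference past 1 turned its direction under any alternative run, and related rows were not followed singly. For a single row, a pseudocount, a filter or a threshold cannot turn the direction. Only median-ratio scaling, quantile normalisation and equal sums could have done so. Counts of members past 1 are given in the order chicken E3 to E5, E5 to E8, then pigeon. A pseudocount of 5 gave 3 (main 5) for chicken and 1 (main 2) for pigeon from E3 to E5. Counting changes of at least 2 gave 1 and 3 in chicken (main 5 and 5) and 0 and 4 in pigeon (main 2 and 8), beside 0.173% and 0.543%, and 0.0921% and 2.22%, of all genes higher. The highest row of each name, chosen after seeing the data, gave 1, 5 and 4 in pigeon over E3 to E5, E5 to E8 and E3 to E8, with fewer rows compared. Members whose species difference was past 1 in size numbered 0 of 2, 1 of 3 and 1 of 2 over these intervals. Of all symbols compared, 0.718%, 5.06% and 5.75% were at 1 or more, and 1.86%, 3.15% and 4.52% at −1 or less. The members past it numbered 1 from E3 to E5 with a pseudocount of 0.1, and 0 over the later intervals at a threshold of 2. The shares of all symbols under these settings were not computed, so these counts have nothing to be set beside. Pairing rows by neighbours, also chosen later, added pairs for STMN2, NEFL and NEFM. It gave 1 of 5, 1 of 6 and 2 of 5 over the intervals. Related rows past 1 in chicken went from 5 to 8, 2 and 1 (pseudocounts of 0.1 and 5, threshold 2) from E3 to E5. The shares of all genes higher went from 1.97% to 5.33%, 0.545% and 0.173% under these settings. At the threshold of 2 the related rows went from 15 to 2 and from 18 to 10 in the later intervals, beside 0.543% and 1.51% of all genes. In pigeon the threshold of 2 took the related rows from 6 to 1 (E3 to E5), from 16 to 10 (E5 to E8) and from 17 to 11 (E3 to E8). The shares of all genes higher were then 0.0921%, 2.22% and 2.71%. Equal sums without other tissues moved the pigeon median of all genes from E3 to E8 to −0.12. Median-ratio scaling and quantile normalisation left every single member's change on its side of 1. The filters cannot alter a change, and they dropped no member row. Low values of SNCG and NRN1 limit what their early changes can show, in chicken (1.48 and 0.496 FPKM at E3) as in pigeon. With a pseudocount of 5 these chicken changes from E3 to E5 were 0.61 and 0.91, under 1.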

Other observations

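An unnamed chicken locus lay 4.65 kb beyond the end of SNCG, from 3629177 to 3629558 on chromosome 6. It was at 0.185 FPKM at E3, 3.14 at E5 and 16.6 at E8, the same order of stages as SNCG. On the other side, 6.66 kb away, MMRN2, a gene of endothelial cells, was at 1.21, 1.79 and 0.0574. Pigeon MMRN2, 8.16 kb from SNCG, was at 6.87, 4.73 and 0.907, so in both species these neighbours were at opposite ends of their range at E8. Other unnamed chicken loci, 15.3 and 18.4 kb beyond SNCG, were at 2.96, 2.13 and 0.158 and at 10.4, 5.93 and 0.422. These rows were chosen after their values were seen.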
